A study of Rattus norvegicus with 6 samples.

Results

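The 10 genes described here encode the channels, cotransporters and water channels by which salivary glands make and modify saliva. They are Slc12a2, Kcnn4, Ano1, Slc4a4, Aqp5, Aqp1, Cftr, Scnn1a, Scnn1b and Scnn1g. Members were taken by gene symbol: 17 of the 23535 array probes with a single gene symbol named one of them, and the 10 genes are among 14871 genes named on the array. Each member had at least 1 probe, and all 10 had a value on both salivary gland arrays, 8 on each striatal array and 5 on each leukocyte array. The members were chosen with earlier results of these data known, so their values are described and not tested.

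Saliva is made in stages. Acinar cells take up chloride across the basolateral membrane through the sodium, potassium and chloride cotransporter NKCC1, encoded by Slc12a2, and release it into the lumen through the calcium-activated chloride channel encoded by Ano1, while potassium channels such as KCNN4 keep the driving force. Sodium and water follow, with aquaporin 5 as the apical water channel, and the sodium bicarbonate cotransporter encoded by Slc4a4 adds bicarbonate. Duct cells then take salt back from this fluid through the epithelial sodium channel, a complex of an alpha, a beta and a gamma subunit (Scnn1a, Scnn1b and Scnn1g), and through the chloride channel CFTR. Aquaporin 1 lies mainly in the walls of small vessels and in myoepithelial cells of the gland, and also in red blood cells and, in the brain, in the choroid plexus.

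The samples came from male Wistar rats, an outbred strain, that had been tickled by hand, touched lightly or left without stimulation. All animals, the unstimulated ones included, lived alone in their cages from 21 days of age, and tissue was taken when they were 60 days old. Tickling or touching was given once a day on weekdays over 4 weeks, with bouts of 15 s separated by pauses of 15 s. Tickling imitates rough-and-tumble play and evokes 50 kHz calls, taken in this field to mark a positive state, and light touch is the control for handling. RNA of striatum, salivary glands and peripheral leukocytes was compared on 6 two-colour Agilent arrays, each with tickled RNA in the Cy5 channel and 1 of the other conditions of that tissue in the Cy3 channel, so each tissue has a no-stimulus array and a light-touch array. There were 4 animals per condition by the design, and the sources used here do not say whether an array holds a pool or 1 animal. The labels do not say which salivary gland, or which mixture of glands, was taken, and their extraction text names hypothalamus for every sample, against the tissue labels.

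Values are log2 ratios, tickled over comparator, and genes with several probes are given by the median probe. Every comparison rests on a single array, which limits the precision: no difference has a replicate check and none was tested. Tickled RNA was in Cy5 on all 6 arrays with no dye-swapped partner. An effect of the dye on a gene therefore cannot be told apart from an effect of tickling. As a measure of error, probes of the same gene were compared, and their SD had a median over genes of 0.09 to 0.12 on the salivary and striatal arrays and of 0.15 and 0.20 in leukocytes. Between 10522 and 10922 genes had a value on each salivary or striatal array, and 6316 and 6182 in leukocytes. Ratios carry no level, so levels of different genes or tissues were not compared, and the tissue labels could be checked only by which markers had a value. Of 9 granular duct markers, 7 had a value on each salivary array and 1 on each other array. Of 9 markers of striatal medium spiny neurons, 8 had a value on each striatal array, 1 on each leukocyte array, and 3 and 5 on the salivary arrays. Of 9 lymphoid markers 6 had a value on each leukocyte array and 1 on each striatal array, but 6 also had a value on each salivary array, so this list did not separate leukocytes from salivary glands.

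In salivary glands most of these transport genes were higher after tickling than without stimulation and near 0 against the light-touch sample. Over no stimulus, 9 of 10 lay above 0 and their median was 0.47 (range -0.09 to 1.05), where 48.2% of all genes lay above 0 and the median of all genes was -0.0085. Over light touch, 4 of 10 lay above 0 with a median of -0.03 (range -0.28 to 0.44), beside 50.0% and a median near 0 for all genes. At 1.5-fold, a log2 ratio of 0.58, 3 members were higher over no stimulus (Scnn1g, Slc12a2 and Aqp1), where 2.94% of all genes were, and 0 were lower, where 2.74% of all genes were. Over light touch, 0 members were 1.5-fold higher, against 0.877% of all genes, and 0 lower, against 0.747%. Tissue RNA is a mixture, and in all these values more cells of a type and more RNA per cell cannot be told apart.

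**Figure D1:**
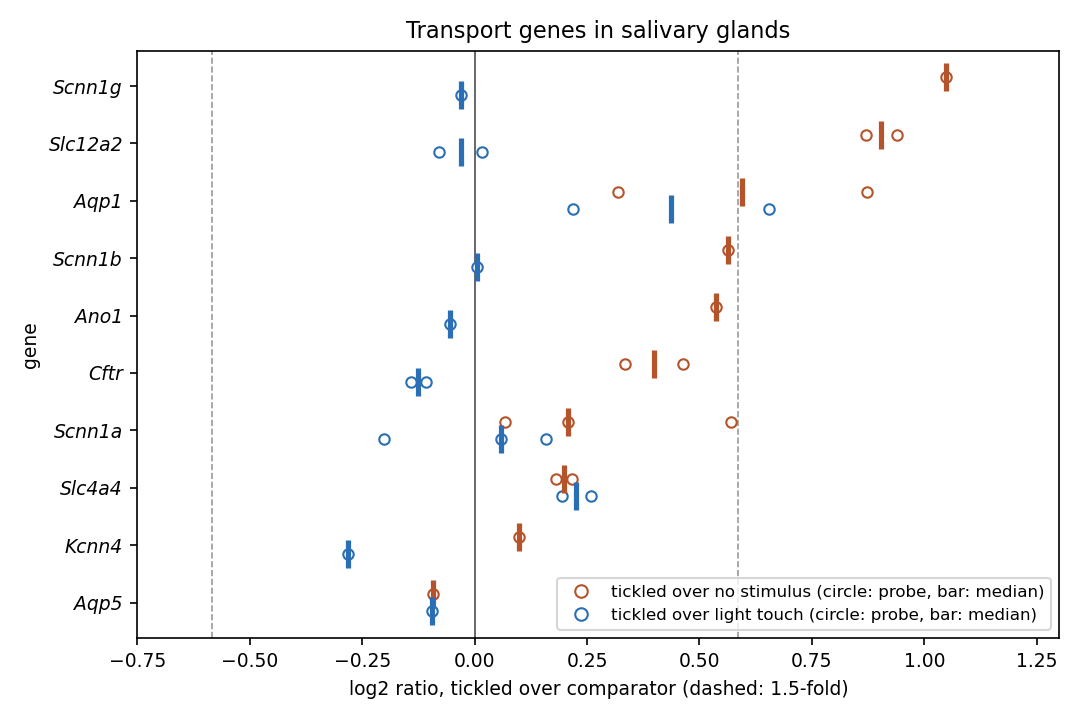
Log2 ratios (horizontal axis) of the 10 transport genes in salivary glands, tickled over no stimulus in brown and over light touch in blue. Circles are probes, bars are the gene's median over its probes, and dashed lines mark 1.5-fold. Scnn1g and Slc12a2 stand at 1.05 and 0.90 over no stimulus and at -0.03 over light touch, while the probes of Aqp1 and Scnn1a lie far apart.

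Of the acinar genes, the cotransporter gene Slc12a2 (Entrez Gene 83629) stood farthest from 0. Its log2 ratio was 0.90 over no stimulus, a 1.87-fold difference, with its 2 probes at 0.87 and 0.94, and only 1.13% of all genes were higher on that array. Over light touch it was -0.03, with probes at -0.08 and 0.02 on either side of 0. The chloride channel gene Ano1 (Entrez Gene 309135), the exit path for the same chloride, had 0.54 over no stimulus on its single probe, with 3.51% of genes higher, and -0.06 over light touch. It lay just short of 1.5-fold.

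The remaining acinar genes were closer to 0. Kcnn4 (Entrez Gene 65206), the calcium-activated potassium channel gene, had 0.10 over no stimulus and -0.28 against light touch on 1 probe, the lowest member on the light-touch array, where 94.6% of genes were higher. Slc4a4 (Entrez Gene 84484), the bicarbonate cotransporter gene, had 0.20 over no stimulus and 0.23 against light touch, with both valued probes between 0.18 and 0.26 on the 2 arrays. Aqp5 (Entrez Gene 25241), the acinar water channel gene, had -0.09 on both arrays on its single probe, and it was the only member below 0 over no stimulus. Thus, over no stimulus, the chloride uptake and exit genes lay well above 0 and the water channel gene of the same cells did not.

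Among the duct genes, Scnn1g (Entrez Gene 24768), the gamma subunit of the sodium channel, had the widest difference of all members. Its single probe read 1.05 over no stimulus, a 2.07-fold difference with 85 of 10522 genes higher, and it was the 1 member past 2-fold, where 0.931% of all genes were, with 0 members 2-fold lower, where 1.02% were. Over light touch it was -0.03. Scnn1b (Entrez Gene 24767), the beta subunit, had 0.56 over no stimulus and 0.0044 against light touch, also on 1 probe.

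The alpha subunit gene Scnn1a (Entrez Gene 25122) was lower than the other subunits over no stimulus, but its 3 probes did not agree. They read 0.07, 0.21 and 0.57 over no stimulus and 0.06, 0.16 and -0.20 over light touch in the same order, giving medians of 0.21 and 0.06. The probe at 0.57 was close to Scnn1b, and the other 2 were closer to 0, so the position of Scnn1a among the subunits depends on the probe read. Cftr (Entrez Gene 24255), the chloride channel gene, had 0.40 over no stimulus (probes at 0.33 and 0.46) and -0.13 over light touch (probes at -0.14 and -0.11).

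Aqp1 (Entrez Gene 25240), the water channel gene of vessels and myoepithelial cells, was the member farthest above 0 on the light-touch array. It had 0.60 over no stimulus and 0.44 against light touch, with 1.89% of all genes higher over light touch. Slc4a4, Scnn1a and Scnn1b were also above 0 on both salivary arrays. Its 2 probes were at 0.32 and 0.87 over no stimulus and at 0.22 and 0.65 over light touch, so the same probe was higher on both arrays and its place past 1.5-fold rests on that probe. Beside it, endothelial markers had medians of 0.18 over no stimulus (range -0.19 to 0.65, 8 of 10 above 0) and 0.13 over light touch (range -0.09 to 0.64, 9 of 10 above 0). Myoepithelial markers had medians of -0.43 (6 of 8 valued, range -1.16 to -0.23) and -0.09 (range -0.18 to 0.03), and erythroid markers -0.33 (6 of 10 valued, range -0.64 to 0.76) and -0.13 (5 valued, range -0.30 to 0.44). The part of these cells in the Aqp1 values was not tested.

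In the order of members over no stimulus, some neighbours lay closer together than the typical SD between probes on that array, 0.10. Aqp1, Scnn1b and Ano1 lay 0.03 apart from each to the next, and Scnn1a and Slc4a4 lay 0.0071 apart. Slc12a2 lay 0.31 above the next member, Aqp1, and 0.14 below Scnn1g, whose single probe has no SD.

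Promoter sequence is shown for the 3 members past 1.5-fold over no stimulus and for Aqp5, the member lowest there, so that the sequences at both ends of the order can be read side by side. RefSeq promoters of assembly GRCr8 were matched by symbol for 8 of the 10 members, all but Kcnn4 and Scnn1a, and the 250 bases before the gene start are given 5′ to 3′ on the gene's strand. Scnn1g is at chr1:185735975-185736224 (plus strand), Slc12a2 at chr18:53546083-53546332 (plus), Aqp1 at chr4:85812534-85812783 (plus) and Aqp5 at chr7:132601278-132601527 (plus). Capitals mark matches on either strand to the GC box GGGCGG, the TATA box TATAAA, the CCAAT box CCAAT, the steroid receptor motif AGAACA or the E box CACGTG.
Scnn1g: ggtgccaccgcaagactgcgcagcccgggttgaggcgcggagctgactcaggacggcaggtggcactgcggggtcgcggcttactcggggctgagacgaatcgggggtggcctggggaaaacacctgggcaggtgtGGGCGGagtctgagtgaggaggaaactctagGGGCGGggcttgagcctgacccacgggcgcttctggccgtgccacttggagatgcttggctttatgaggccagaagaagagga
Slc12a2: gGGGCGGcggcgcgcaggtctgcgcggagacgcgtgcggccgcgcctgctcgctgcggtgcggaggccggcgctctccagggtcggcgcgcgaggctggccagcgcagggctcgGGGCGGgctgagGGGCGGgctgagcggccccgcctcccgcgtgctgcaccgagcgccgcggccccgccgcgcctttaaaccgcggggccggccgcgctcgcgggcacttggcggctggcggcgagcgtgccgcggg
Aqp1: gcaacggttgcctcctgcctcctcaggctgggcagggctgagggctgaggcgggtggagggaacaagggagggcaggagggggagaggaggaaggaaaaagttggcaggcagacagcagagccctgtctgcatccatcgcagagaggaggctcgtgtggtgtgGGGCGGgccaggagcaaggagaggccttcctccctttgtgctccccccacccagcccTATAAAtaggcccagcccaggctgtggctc
Aqp5: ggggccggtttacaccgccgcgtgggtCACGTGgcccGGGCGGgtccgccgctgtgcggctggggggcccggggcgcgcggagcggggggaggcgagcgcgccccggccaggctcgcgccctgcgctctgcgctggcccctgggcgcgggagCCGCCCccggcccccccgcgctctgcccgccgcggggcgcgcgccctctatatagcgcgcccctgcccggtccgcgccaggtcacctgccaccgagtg

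The GC box was present in 7 of the 8 member promoters, all but Slc4a4, and in 30.5% of the 33469 promoters of the table. Scnn1g held 2, at 114 and 83 bases before the gene start, Slc12a2 held 3, Aqp1 held 1 and Aqp5 held 2, so the motif was in the genes past 1.5-fold and in Aqp5. Member promoters were rich in G and C, with a median of 72.0% (range 65.2% to 83.2%) against 51.2% for all promoters, and a motif of only G and C is more frequent in such sequence. The TATA box was in Aqp1 alone, 30 bases before the start (12.9% of all promoters), and the E box in Aqp5 alone (5.59%). Neither the CCAAT box (34.0% of all promoters) nor the steroid receptor motif (17.5%) was in any of the 8 windows. A match is a description of letters and not evidence of binding.

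**Figure D2:**
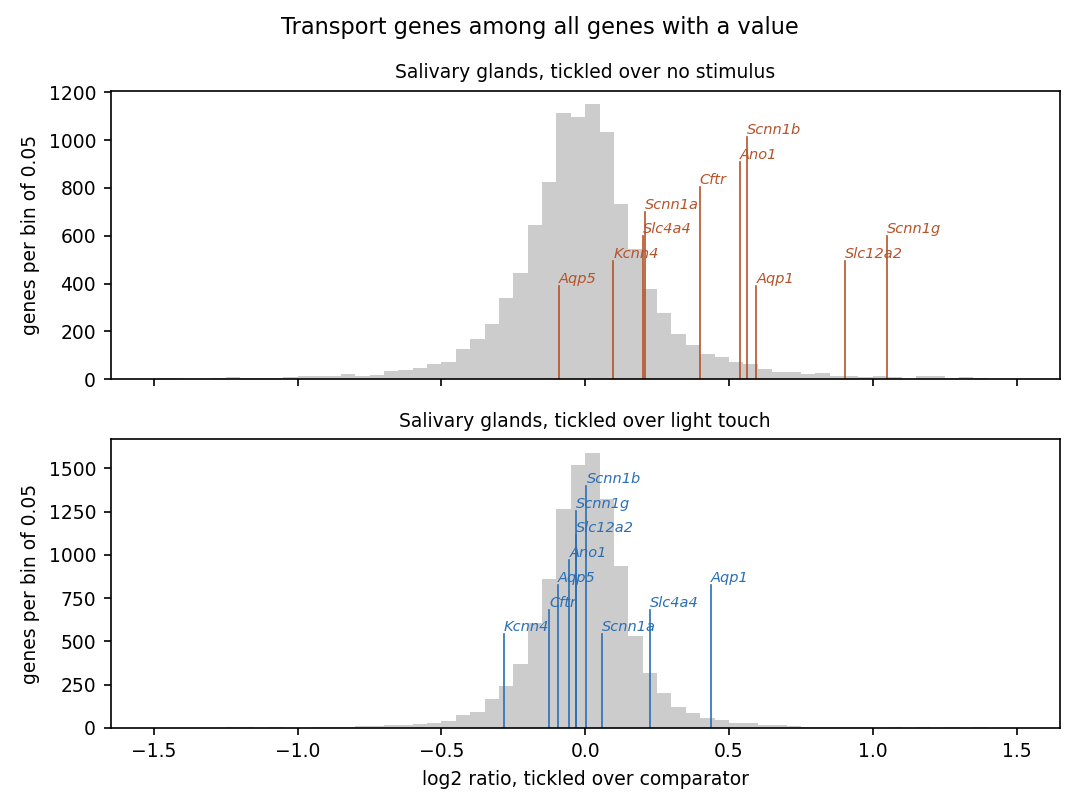
Histograms of the log2 ratios of all genes with a value (grey, genes per bin of 0.05) on the salivary no-stimulus array (top) and light-touch array (bottom), with the 10 transport genes as lines whose height only separates the labels. Over no stimulus 9 of the 10 lie above 0, with Scnn1g and Slc12a2 in the upper tail, and over light touch they lie between -0.28 and 0.44. Beyond 1.5 either way, 76 genes (top) and 8 genes (bottom) are not drawn.

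Both salivary arrays carry tickled RNA, so their values may not be independent of each other. If both carry the same tickled extract, which the labels do not state, the difference of the arrays is light touch over no stimulus. On that reading the light-touch sample was higher than the no-stimulus sample in 9 of 10 members, with a median of 0.45. Of all genes 47.7% lay above 0, with a median of -0.0085. Scnn1g had 1.08, Slc12a2 0.94 and Ano1 0.59, and these 3 were 1.5-fold or more higher, where 2.49% of all genes were, with 0 lower, where 2.25% were. Scnn1b had 0.56, Cftr 0.52 and Kcnn4 0.38, whereas Aqp1 (0.16), Scnn1a (0.15), Aqp5 (0.0012) and Slc4a4 (-0.03) were closer to 0. For Scnn1a this is a difference of medians. Its 3 probes taken singly gave 0.01, 0.05 and 0.77, so its place depends on the probe read. For Scnn1g, Slc12a2 and Ano1, then, the no-stimulus sample was the one that stood apart, below both the tickled and the light-touch samples.

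The other genes of fluid secretion were read from 7 lists of 131 genes in all, of which 81 had a value over no stimulus and 83 against light touch. Over no stimulus their median was -0.04, against 0.47 for the members. Members and lists were chosen with earlier results of these data known, so the gap between these medians is no test. Over no stimulus 7 of the 81 were at least 1.5-fold higher and 4 lower, beside 2.94% and 2.74% of all genes. Over light touch their median was -0.03, and 3 of the 83 were higher and 1 lower, beside 0.877% and 0.747%. The 7 higher genes were Car2, Slc9a2, Slc4a11, Aqp9, Fxyd2, Hsd11b2 and Atp1b2, and the 4 lower were Kcne1, Furin, Nr3c2 and Fxyd3.

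Most of the genes 1.5-fold higher over no stimulus came from the bicarbonate and sodium pump lists, whose medians were near 0. Of 11 valued bicarbonate and proton transport genes, 3 were 1.5-fold higher over no stimulus and 0 lower, beside 2.94% and 2.74% of all genes. Their median was 0.0096. Car2, a cytosolic carbonic anhydrase, had 0.82 over no stimulus and -0.25 against light touch, and Slc9a2, a sodium and proton exchanger, had 0.78 and 0.25. Slc4a11, of the bicarbonate transporter family, had 0.73 and 0.07, whereas Slc4a10, a sodium-coupled bicarbonate transporter, had -0.55 over no stimulus and no value over light touch. The sulfate transporter gene Slc26a2 had 0.53 and 0.49.

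Of 8 valued genes of the sodium pump and basolateral uptake, 2 were 1.5-fold higher and 1 lower over no stimulus (median -0.06). The shares of all genes there were 2.94% and 2.74%. Fxyd2, the gamma subunit of the pump, had 0.64 over no stimulus and -0.23 against light touch, and the beta subunit gene Atp1b2 had 0.59 and 0.22. Fxyd3, another regulator of the pump, had -0.62 and -0.24. The main epithelial beta subunit gene, Atp1b1, had 0.05 and -0.48, with an SD between its 2 probes of 0.44 and 0.40.

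Regulators of the epithelial sodium channel went both ways, with 1 of 16 valued genes 1.5-fold higher and 2 lower over no stimulus (median -0.03). The shares of all genes there were 2.94% and 2.74%. Hsd11b2, which inactivates glucocorticoids in cells that answer to aldosterone, had 0.64 over no stimulus and 0.0092 against light touch. Nr3c2, the aldosterone receptor, was 1.5-fold lower over no stimulus by its median, but its 2 probes lay far apart at -0.23 and -1.76, and at -0.08 and -0.48 over light touch. Furin, a protease that cleaves the alpha and gamma subunits, was 1.5-fold lower on both salivary arrays (-1.13 and -0.79) on 1 probe. Stk39, a kinase that activates NKCC1, had 0.43 and -0.06. Its 2 probes lay apart at 0.76 and 0.09 over no stimulus, and at 0.05 and -0.16 over light touch. Stx1a, a syntaxin that binds the channel, had -0.04 and 0.97.

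**Figure D3:**
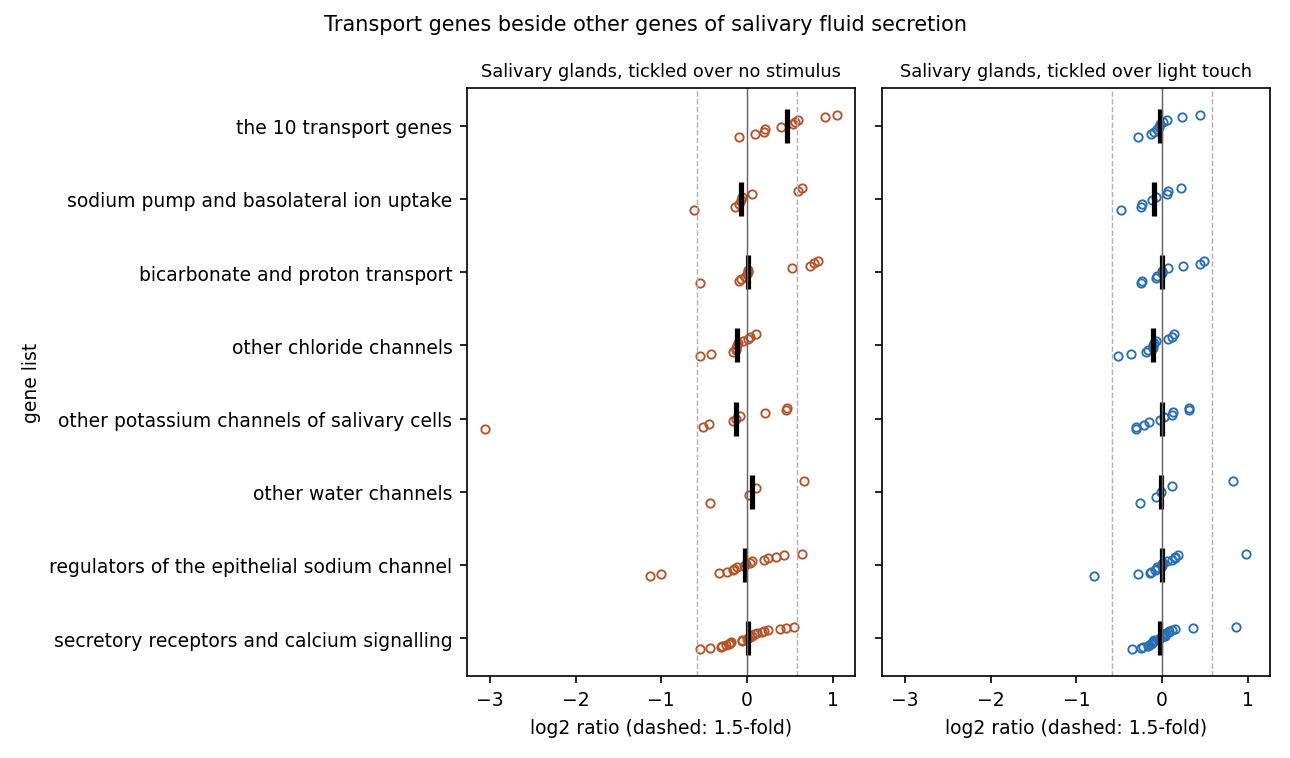
Log2 ratios (horizontal axis) of the 10 transport genes (top line) and of 7 lists of other genes of salivary secretion on the salivary no-stimulus array (left) and light-touch array (right). Circles are genes, black bars are medians over the genes of a list, and dashed lines mark 1.5-fold. The transport genes have a median of 0.47 over no stimulus and the medians of the 7 lists lie between -0.12 and 0.06, with Kcne1 far to the left at -3.06.

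None of the 11 valued chloride channel genes beyond Ano1 and Cftr was 1.5-fold apart on either salivary array, with medians of -0.12 and -0.10. Of all genes, 2.94% were higher and 2.74% lower over no stimulus, and 0.877% and 0.747% over light touch. A count of 0 is near that background for a list of this size. Clic6 had -0.55 and -0.16, and Clcn5, an endosomal chloride and proton exchanger, had -0.42 and -0.51. Among 9 valued potassium channel genes the median was -0.12 over no stimulus, and Kcne1, a regulatory subunit of potassium channels, was 1.5-fold lower on its single probe (-3.06, and 0.12 over light touch). Kcnk6 had -0.52 and -0.21, Kcnmb4 0.46 and 0.31, and Kcnj16 0.45 and -0.30. Of the water channels beyond members, Aqp9, which also passes glycerol, had 0.66 and 0.12, Aqp11 had -0.43 and -0.26, and Aqp8 had 0.83 over light touch with no value over no stimulus.

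The receptors and calcium signalling genes that switch secretion on had a median of 0.0072 over no stimulus. Of 22 valued genes 0 were 1.5-fold higher and 0 lower, beside 2.94% and 2.74% of all genes, a count near the background for a list of this size. Adrb1, a beta adrenergic receptor, had 0.55 over no stimulus and -0.35 against light touch, and Vipr1, a receptor of vasoactive intestinal peptide, had -0.55 and 0.36. P2rx7, an ATP-gated channel, had 0.46 and -0.03. Over light touch 1 of 23 was higher, where 0.877% of all genes were, and 0 lower, where 0.747% were. That gene was the muscarinic receptor gene Chrm1, at 0.86 on 1 probe. The same probe read 0.11 over no stimulus, where the gene's median over 2 probes was -0.06.

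Cell type markers were also far from 0 on the array where the transport genes were high. Granular ducts are the convoluted ducts of the rat submandibular gland. All 7 of their valued markers were at least 1.5-fold higher over no stimulus, where 2.94% of all genes were. Their median was 3.03 (range 0.82 to 3.73), against -0.19 (range -0.30 to 0.50) over light touch. Other duct markers, 9 of 12 valued with the member Cftr left out, had medians of -0.09 (range -0.63 to 0.36) and -0.17 (range -0.43 to 0.03). Serous and mucous acinar markers had medians of -1.15 over 6 of 13 genes (range -4.11 to 1.80) and -0.12 over 5 (range -0.17 to 0.07). They went both ways over no stimulus. Gcnt3, Lman1l, Creb3l1 and Spdef were 1.5-fold lower, where 2.74% of all genes were. Oprpn was higher at 1.80, past 1.5-fold as were 2.94% of all genes, and Bhlha15 had 0.35. Parotid acinar markers had medians of 0.0074 and 0.13 over 7 of 9 genes, with ranges of -1.47 to 1.51 and -0.05 to 2.31. Adipocyte markers had -0.74 over no stimulus (range -1.68 to 0.13) and 0.84 over light touch (range -0.07 to 1.61), on 6 of 8 genes. On the array where the granular duct markers were high, all sodium channel genes lay above 0. Scnn1g had 1.05, Scnn1b 0.56, just short of 1.5-fold, and Scnn1a 0.21 (probes from 0.07 to 0.57). The other duct markers had a median below 0 there. The part of gland or cell composition in the values of the transport genes was not tested.

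**Figure D4:**
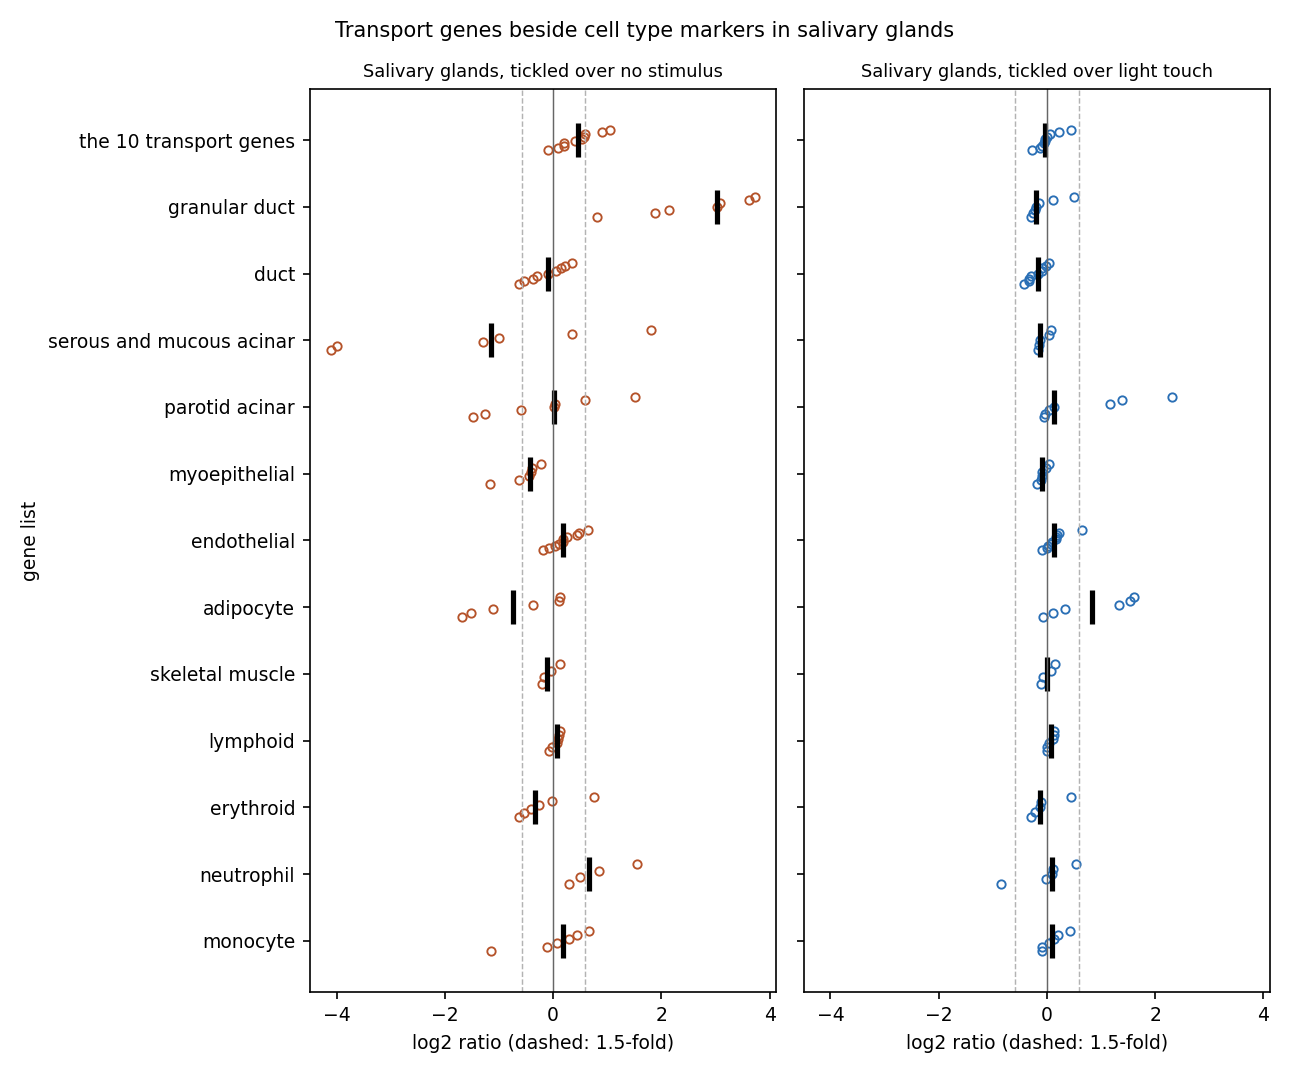
Log2 ratios (horizontal axis) of the 10 transport genes and of 12 lists of cell type markers on the salivary no-stimulus array (left) and light-touch array (right). Circles are genes, black bars are medians and dashed lines mark 1.5-fold. Granular duct markers lie between 0.82 and 3.73 on the left, beyond most of the transport genes, and adipocyte markers lie mostly left of 0 on the left panel and right of 0 on the right panel.

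In striatum none of the 8 valued members was 1.5-fold apart on either array. The shares of all genes 1.5-fold higher and lower were 0.485% and 0.787% over no stimulus and 0.812% and 0.545% over light touch. Member medians were 0.13 (range -0.33 to 0.31) over no stimulus and 0.06 (range -0.19 to 0.38) over light touch, beside -0.02 and -0.0029 for all genes. Ano1 had 0.31 and 0.38, with 4.26% and 2.27% of genes higher. Slc4a4, a transporter of astrocytes in the brain, had 0.30 and 0.13 over 3 probes (0.23 to 0.58 and 0.12 to 0.28), beside astrocyte marker medians of 0.23 (range 0.15 to 0.36) and 0.04 (range -0.05 to 0.30), all 6 valued. The part of astrocytes in the Slc4a4 values was not tested. Slc12a2 had 0.19 and -0.0028, Cftr 0.12 and 0.15, Kcnn4 0.10 and -0.06, and Scnn1a 0.08 and 0.11. Cortical neuron markers, 5 of 6 valued, were all 1.5-fold lower on both striatal arrays. Their medians were -1.06 (range -1.26 to -0.78) over no stimulus and -0.99 (range -1.13 to -0.82) over light touch. The part of cortical tissue in the member values was not tested.

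Aqp1 was the only member below 0 on both striatal arrays, with -0.33 over no stimulus and -0.19 against light touch on 1 valued probe. Choroid plexus markers, of which 3 and 4 of 10 had a value, went the other way with medians of 0.28 (range 0.02 to 0.59) and 0.52 (range 0.23 to 1.62). Erythroid markers had -0.58 (range -0.66 to 0.31) and -0.33 (range -0.43 to 0.20) on 5 of 10 genes, and endothelial markers 0.12 (range 0.03 to 0.32) and -0.01 (range -0.21 to 0.21) on all 10. The part of these cells in the Aqp1 values was not tested. Scnn1b had a value on the light-touch array only (-0.04), Aqp5 on the no-stimulus array only (0.13), and Scnn1g on neither.

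Leukocytes had values for Kcnn4, Slc4a4, Aqp1, Scnn1a and Scnn1b. Over no stimulus 0 of 5 were 1.5-fold higher, where 3.21% of all genes were, and 0 lower, where 2.9% were. Over light touch 1 of 5 was higher, where 8.09% were, and 0 lower, where 5.06% were. That gene was Slc4a4, with 0.70 over light touch and 0.15 over no stimulus on 1 of its 3 probes. Kcnn4, a potassium channel of lymphocytes and red blood cells, had -0.28 over no stimulus and -0.05 against light touch, beside lymphoid marker medians of -0.14 (range -0.47 to 0.24) and -0.02 (range -0.09 to 0.30) on 6 of 9 genes. Aqp1 had 0.25 and -0.19, beside erythroid medians of 0.13 (range -0.02 to 0.27) and -0.10 (range -0.45 to 1.34) on 7 of 10 genes. The part of cell composition in these values was not tested.

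The sodium channel genes in leukocytes differed more between the arrays. Scnn1b had -0.38 over no stimulus and 0.54 against light touch on 1 probe. Scnn1a had 0.29 over no stimulus on 1 probe and 0.58 over light touch on 2, at 0.21 and 0.94. The probe of Scnn1a valued on both arrays read 0.29 and 0.21. If the tickled extract is shared, Scnn1b was lower in light-touch than in no-stimulus leukocytes by a log2 ratio of -0.92, past 1.5-fold as were 5.57% of all genes, and 0 of 5 members were higher, where 3.99% were. In the striatum the same reading put 0 of 7 members past 1.5-fold, where 0.336% of genes were higher and 0.598% lower.

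**Figure D5:**
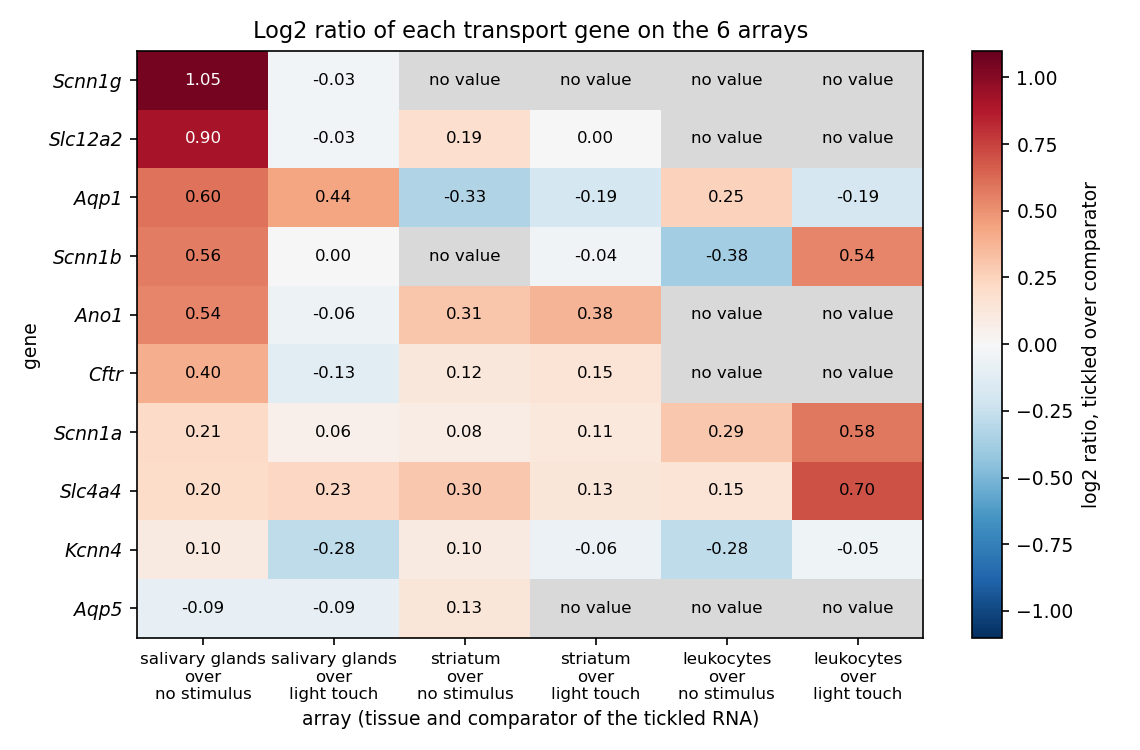
Log2 ratio of each transport gene (vertical axis) on each of the 6 arrays (horizontal axis), printed and coloured from blue (lower in tickled) to red (higher in tickled), with grey for no value. The left column, salivary glands over no stimulus, holds the 2 darkest cells, Scnn1g at 1.05 and Slc12a2 at 0.90, and Scnn1g has no value outside the salivary glands.

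Across the 6 arrays the members had no common pattern. Slc4a4 and Scnn1a were above 0 on all 6 arrays, with ranges of 0.13 to 0.70 and 0.06 to 0.58. Slc12a2, Ano1, Cftr and Scnn1g had their highest value on the salivary no-stimulus array and none in leukocytes. Aqp1 and Scnn1b also had their highest value there, and their lowest in striatum and leukocytes respectively, over no stimulus. Scnn1g had values on the salivary arrays only, as did 581 genes or 3.91% of those on the array with values on both salivary arrays and no other.

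The genes most like a member were found by the distance between their log2 ratios over the arrays on which the member had a value, for members 1.5-fold apart on some array and valued on 4 or more. Nearest to Slc12a2 over 4 arrays, among 9419 genes, were Efhd1 at a distance of 0.09, Rerg at 0.11 and Or7a37 at 0.12. Nearest to Slc4a4 over 6 arrays, among 5486 genes, were Tnrc6c at 0.11, Myl11 at 0.14 and Or2t45 at 0.18. Aqp1 had no near match, with Asb1 at 0.35, Procr at 0.40 and Tspan33 at 0.42.

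Outside the salivary glands, 3 genes of the 7 lists were 2-fold or more apart on an array. Of all genes in leukocytes, 24 of 6316 were 2-fold higher and 9 lower over no stimulus. Over light touch, 89 of 6182 were higher and 17 lower. In striatum over light touch, 9 of 10835 were higher and 9 lower. Aqp11, an intracellular water channel, had -1.51 over no stimulus and -1.47 against light touch in leukocytes on 1 probe. Trpv4, a calcium-permeable channel that responds to cell swelling, had 1.17 and 0.86 in leukocytes, also on 1 probe. In striatum Adra1d, which encodes an alpha adrenergic receptor, had -0.83 over no stimulus and -1.54 against light touch on 1 probe.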

How the data were processed

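The deposited table holds 1 value for each of 44290 features on each of 6 two-colour arrays. Agilent Feature Extraction 9.1 is listed in the submitters' processing notes, and per the labels 500 ng of RNA was labelled, with tickled RNA in Cy5. The values were taken as log2 ratios made by the authors, Cy5 over Cy3; no source used here gives the normalization, the log base or the rule for blank values. The value farthest from 0, -7.75, means a comparator 216 times the tickled sample in base 2 and 56526900 times in base 10, which is not plausible, and natural logs would make each log2 ratio 1.44 times as large. Intensities of the channels were not analysed here.

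Features were named through the platform annotation, updated by Entrez identifier against the RefSeq table of GRCr8: 23535 had 1 symbol, 48 several and 20707 none, and 23488 identifiers matched. No coordinates of that table were joined to the probes. Probes of a gene were summarised by their median (pandas 2.3.3, numpy 2.4.6). Genes were counted at 1.5-fold and 2-fold with no test; gene summary and counts were tested on simulated data. Promoter motifs were searched in 250 bases before each gene start.

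The members, gene lists and alternatives were chosen with earlier results of these data known. Genes named are all members, up to 4 and 2 genes per list by size on the salivary no-stimulus and light-touch arrays, those of a list 2-fold apart elsewhere, and the 3 nearest genes of a member; part of them are given. Alternatives were centring, scaling, the probe summary, the log base, the fold, genes valued on both arrays, and subtraction of other tissues.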

Additional observations from a re-analysis of the deposited data

Results flagged for a closer look

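Aqp1 lay on opposite sides of 0 in 2 tissues: it was higher in the tickled sample on both salivary arrays, at 0.60 against no stimulus and 0.44 against light touch, and lower on both striatal arrays, with -0.33 and -0.19. Each value was farther from 0 than the median SD between probes of a gene on its array. The 2 probes of Aqp1 itself lay farther apart in salivary glands, with an SD of 0.39 (no-stimulus array) and 0.31 (light-touch array). The arrays of a tissue may share the same tickled extract, which the labels do not state. The striatal values rest on 1 probe, which read 0.32 (no-stimulus array) and 0.22 (light-touch array) in salivary glands. The salivary values of 0.60 and 0.44 also include a probe with no striatal value, so the tissues lie closer together on the shared probe. The difference between the tissues was not tested.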

How the results depend on the processing

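Of the medians and counts of the transport genes, 96 alternative values stayed within the SD between probes or within 1.5 times the count. No gene past 1.5-fold turned to the other side of 0, but the alternatives run gene by gene could not turn one. Such genes had 1 probe or probes of the same sign, and subtraction of other tissues was not run gene by gene. The median in salivary glands over no stimulus, 0.47, became 0.33 with the probe of smallest absolute value of each gene, 0.67 with values read as natural logs, and 0.23 with the median of the other tissues subtracted, which left 8 genes. That subtraction gave -0.13 in salivary glands and -0.11 in striatum over light touch, and -0.064 in leukocytes over no stimulus. In leukocytes over light touch the median, 0.54, became 0.30 with arrays scaled to 1 spread, 0.21 with the smallest probe and 0.78 as natural logs. The count of 3 genes 1.5-fold higher in salivary glands over no stimulus became 5 after scaling, 5 as natural logs and 1 at 2-fold, and the 0 over light touch became 1 after scaling and 1 as natural logs. In striatum over light touch the 0 became 1 after scaling, and in leukocytes over light touch the 1 became 0 after scaling, 3 as natural logs and 0 at 2-fold. The cause of these changes was not tested, apart from the scaling, log base and fold, which change counts by construction. No paired analysis was possible because each comparison has 1 array. Without replicates or channel intensities, neither the error between animals nor the signal over background is known, and Ano1, Kcnn4, Aqp5, Scnn1b and Scnn1g rest on 1 probe each.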

Other observations

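Scnn1g and Scnn1b are neighbouring genes in the RefSeq table of GRCr8, and both were above 0 in salivary glands over no stimulus, at 1.05 and 0.56. The protein-coding genes on their outer sides, Usp31 and Cog7, had -0.26 and -0.32 there, and -0.10 and -0.14 over light touch. Aqp5 lies between Aqp2 and Aqp6 in the same table. Aqp2, the water channel of kidney collecting ducts, had 0.02 and -0.0083 on the salivary arrays, and Aqp6 had no value there. These neighbours were looked up after the values of the transport genes were seen.

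Neutrophil markers were above 0 on the salivary no-stimulus array: the 4 valued neutrophil markers of 9 had a median of 0.67 (range 0.29 to 1.55), against 0.10 (range -0.85 to 0.53) over the 5 valued on the light-touch array. Monocyte markers went both ways, with medians of 0.19 (range -1.15 to 0.66) and 0.09 (range -0.10 to 0.43), and lymphoid markers had 0.08 (range -0.08 to 0.12) and 0.07 (range -0.0060 to 0.13).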
